A study of Mus musculus with 5 samples.

Results

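The genes described here are those that encode the secreted ligands, receptors and modulators of the WNT pathway in mouse kidney. They were chosen by symbol and not by any measured value: the Wnt ligands, the Frizzled receptors (Fzd), the secreted modulators Dkk and Sfrp, the R-spondins (Rspo) and their receptors Lgr4 to Lgr6, the scaffold genes Axin1 and Axin2, and the transcription factors Tcf7, Tcf7l1, Tcf7l2 and Lef1. The rule found 49 genes among the 22980 listed in the deposited count tables. Of these, 30 had at least 20 counts over the 5 libraries, 12 had between 1 and 19, and 7 had none. The data were UMI counts, that is counts of tagged transcripts, in 17542 barcodes, with 1 library per group. Healthy kidney was profiled as whole cells by Drop-seq and as isolated nuclei by sNucDrop-seq, DroNc-seq and 10x Chromium, and the fifth library held 10x nuclei of a kidney at day 14 of unilateral ureteral obstruction. This operation, UUO, is a surgical injury in which blocked urine flow dilates the tubules and scars the tissue. For the dissociated cells the labels name the strain C57BL/6, and they give neither the age nor the sex of any animal and no genetic change in any group. A group of 1 library allows no test. Each interval is an exact 95% interval of counting error alone and says nothing about variation between animals.

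WNT ligands are lipid-modified secreted proteins that bind Frizzled receptors at the surface of nearby cells. In the canonical branch, binding stops a destruction complex built on Axin from marking beta-catenin for degradation, and beta-catenin then acts with TCF/LEF factors on target genes. Dkk proteins bind the co-receptors, Sfrp proteins bind the ligands themselves, and R-spondins acting through Lgr receptors protect Frizzled from removal. In the kidney the pathway is known for nephron formation in the embryo, where Wnt9b and Wnt4 act in turn, and for renewed activity in scarred adult tissue.

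The libraries held from 2947137 UMIs (healthy 10x) to 7411036 (UUO), with a median per barcode of between 1055 and 1630. Levels are in CPM, which relates a gene's count to every UMI of the barcodes in the sum, and they compare labels or libraries for 1 gene and not genes with each other. The healthy 10x library had 1321 CPM of Xist, the RNA of the inactive X chromosome, and 3.73 CPM over 4 Y-linked genes, whereas the UUO library had 0.405 and 619 CPM. Between these 2 libraries the sex-linked pattern and obstruction cannot be told apart. DroNc-seq had the pattern of healthy 10x (1309 CPM of Xist and 8.70 Y-linked), and Drop-seq and sNucDrop-seq had that of UUO (0 of Xist, and 145 and 446 CPM Y-linked), so a ratio against sNucDrop-seq sets libraries of like pattern side by side. Barcode sequences shared by both 10x libraries numbered 23. The authors' labels were checked against marker lists. The list of a label's own cell type was above the rest of its library in 65 of 68 labels and the first of all lists in 51. The UUO label Fib.2 had 291 CPM of the Fibroblast, pericyte and mesangial list against 418 in the other nuclei, and its leading list was Descending limb at 823 CPM against 298. It is therefore named below by its label only, and the other labels not above the rest were PT(S3) of DroNc-seq and Prolif. PT of UUO. The Proximal tubule list was at 844 CPM in the UUO label PT(S2), against 577 in other nuclei and 20097 in healthy PT(S1-S2). The Principal cell list was at 377 CPM in UUO CD-PC and 6599 in healthy CD-PC, with the water channel Aqp3 at 0 in the UUO label. Labels were summed to 9 classes found in both 10x libraries, from the proximal tubule (PT) and the ascending and descending limbs of the loop of Henle (LH(AL) or TAL, LH(DL) or DL and tAL) to the distal convoluted tubule (DCT), connecting tubule (CNT), principal cells (CD-PC), intercalated cells (IC), podocytes (Pod) and endothelium (EC). By name the limb labels do not match in full, since DL and tAL takes in the thin ascending limb and TAL is the thick one. The healthy labels do not make that split, and its part in the limb ratios below was not tested. Macrophages, with 3 healthy 10x nuclei, were not compared, and MC, JGA, Fib.1 and Fib.2 had no partner label.

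Promoters were taken from RefSeq (GRCm38.p6), whose table held 42 promoters of 34 of the 49 genes, each with 250 bases before and 50 after a start site. They were searched on both strands for CTTTGAT and CTTTGAA, the core that TCF/LEF factors bind. A match was in 3 of the 42 promoters (7.14%), of Wnt5b, Wnt11 and Dkk1, and in 8.65% of all 32851 promoters. Of these 3 genes Wnt5b alone had counts. Its match lies at the third of its listed starts, 71 bases before it. Below are the 250 bases before a start, 5′ to 3′ on the strand of the gene, with a match in capitals: that start of Wnt5b at chr6:119449387-119449636 (minus strand), Lgr4 at chr2:109917397-109917646 (plus), Dkk2 at chr3:132085042-132085291 (plus) and Axin2 at chr11:108920099-108920348 (plus). Wnt5b is shown for its match, Lgr4 and Dkk2 for their levels by label, and Axin2 as a known target of the pathway. The last 3 hold no match in this window, which says only that these letters are not there.
Wnt5b: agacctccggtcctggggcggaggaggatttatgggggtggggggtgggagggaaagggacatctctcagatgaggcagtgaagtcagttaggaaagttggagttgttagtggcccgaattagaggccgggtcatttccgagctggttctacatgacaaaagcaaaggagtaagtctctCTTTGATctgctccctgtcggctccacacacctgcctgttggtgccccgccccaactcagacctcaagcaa
Lgr4: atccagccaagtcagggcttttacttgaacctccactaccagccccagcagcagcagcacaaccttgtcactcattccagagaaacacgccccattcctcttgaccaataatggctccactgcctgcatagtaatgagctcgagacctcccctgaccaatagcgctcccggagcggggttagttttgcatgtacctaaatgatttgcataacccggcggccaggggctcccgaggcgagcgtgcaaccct
Dkk2: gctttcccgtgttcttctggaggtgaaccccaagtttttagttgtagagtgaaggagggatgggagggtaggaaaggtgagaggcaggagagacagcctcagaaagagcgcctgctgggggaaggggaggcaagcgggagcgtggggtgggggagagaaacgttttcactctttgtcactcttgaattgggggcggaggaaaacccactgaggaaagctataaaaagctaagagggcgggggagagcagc
Axin2: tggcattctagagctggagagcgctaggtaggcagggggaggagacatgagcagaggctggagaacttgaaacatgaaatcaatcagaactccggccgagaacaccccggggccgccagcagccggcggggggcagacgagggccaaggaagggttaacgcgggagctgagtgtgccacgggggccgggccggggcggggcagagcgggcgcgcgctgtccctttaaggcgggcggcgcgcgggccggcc

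Base composition differed among these promoters. Within 300 bases Axin2 had 70.0% G and C and 31 CpG pairs, Lgr4 58.3% and 18, Dkk2 57.7% and 11, and the third start of Wnt5b 55.0% and 7, against medians of 52.7% and 7 over all promoters. The first start of Wnt5b had 78.0% and 47 CpG pairs. The counts are per gene, so they do not say which start of Wnt5b was used under the DL and tAL label.

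Among the 18 Wnt ligands, 10 reached 20 counts. Wnt1, Wnt2, Wnt3a, Wnt10a and Wnt10b had fewer, and Wnt3, Wnt6 and Wnt11 had none. Wnt5b, a ligand of the beta-catenin-independent branch, had 369 counts in UUO nuclei and, in healthy kidney, 132 by 10x, 318 by DroNc-seq, 243 by sNucDrop-seq and 108 in Drop-seq cells. In healthy 10x nuclei it was highest in the label PT(S1-S2), at 99.6 CPM and 48.5% of its counts. In UUO nuclei its highest label was instead DL and tAL, with 217 CPM (interval 162 to 284), or 52 counts in 32 of 205 nuclei. The summed level over all nuclei was nearly level, at 49.8 CPM in UUO and 44.8 in healthy 10x, while the classes went apart. In the descending limb class Wnt5b stood at 217 CPM in DL and tAL against 27.0 (4 counts) in healthy LH(DL). The log2 ratio was 3.01 (1.56 to 4.94). The ascending limb had 103 CPM against 33.8 (1.60, 0.91 to 2.35), and the proximal tubule 40.4 against 74.9 (-0.89, -1.28 to -0.49). Over the healthy references, the descending limb ratio was 2.97 with DroNc-seq and 1.96 with sNucDrop-seq, and the proximal tubule ratio was -0.77 and -0.46. Thinned to 500 UMIs per nucleus, Wnt5b was found in 10.6% of DL and tAL nuclei, 4.25% of TAL and 1.67% of PT(S2). Wnt5b lies on chromosome 6 at 119432531 to 119544347 on the minus strand (mm10, GENCODE M21) and encloses Fbxl14 on the other strand. The sources used here do not say whether counting used strand. Fbxl14 held 2 counts in the DL and tAL label and none in healthy LH(DL).

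The other ligands were sparse. Wnt4, which drives the mesenchyme-to-epithelium step in the embryonic kidney, had 116 counts in UUO and 23 in healthy 10x, or 15.7 against 7.80 CPM. All 7 of its Drop-seq counts were in CD-PC, the principal cells of the collecting duct. In UUO it was highest in the same label, at 45.1 CPM (20 counts in 15 of 322 nuclei), where healthy 10x had 0 counts in 116 nuclei, so with 3 counts set as the healthy floor UUO was at least 1.72-fold higher. The lower end of the exact interval of that log2 ratio was 0.35. Wnt7b, a collecting duct ligand of the medulla, was highest in healthy 10x in LH(DL) at 81.0 CPM and LH(AL) at 49.2. In UUO it was highest in CD-PC at 81.2 CPM (36 of 97 counts). Its ascending limb ratio was -1.28 (-2.22 to -0.39), at 20.3 against 49.2 CPM. Its principal cell ratio was 1.21 (-0.27 to 3.16), at 81.2 against 35.1 CPM, with an interval that spans 0. Over all nuclei Wnt7b was at 13.1 CPM in UUO and 21.4 in healthy 10x. DroNc-seq had 2.05 CPM (12 counts), so that the ratio turned to 2.68 against it. In sNucDrop-seq and Drop-seq Wnt7b was listed at 0, and the healthy label levels given here are those of healthy 10x only. Wnt9a also had its highest UUO level in CD-PC, 33.9 CPM or 15 of 55 counts, and was listed at 0 in healthy 10x. Wnt4, Wnt7b and Wnt9a were thus all highest in the UUO label CD-PC, whose own marker list was low as given above.

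Wnt2b had 59 counts in UUO and 54 in healthy 10x, a log2 ratio of -1.20 (-1.76 to -0.64). It was lower in the proximal tubule (-1.61, -2.39 to -0.83) and the ascending limb (-1.59, -3.26 to -0.12). DroNc-seq and sNucDrop-seq nuclei had 11.6 and 15.1 CPM of Wnt2b against 7.96 in UUO. The all-nuclei ratio was -0.54 with DroNc-seq, under 2-fold. Over the settings run the proximal tubule ratio ranged from -1.71 to -0.51. Wnt5a, a partner of the receptor Ror2, had 53 against 30 counts (-0.51, -1.18 to 0.19), and its highest healthy 10x label was LH(DL) at 60.7 CPM. In the proximal tubule it was at 7.15 against 14.3 CPM (-1.0, -1.94 to -0.03). Wnt16 had few counts but they lay in few labels. All 23 of its DroNc-seq counts and 8 of its 14 sNucDrop-seq counts were in LH(DL), and 10 of its 13 UUO counts were in Fib.2, in 10 of 68 nuclei, while it was listed at 0 in healthy 10x. Its UUO label was thus the one whose leading marker list was Descending limb. Wnt7a, Wnt8b and Wnt9b had at most 12 counts in any library and had no fold.

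Of the 10 Frizzled receptors, Fzd3, Fzd4 and Fzd6 were measured in both 10x libraries, and Fzd1, Fzd2, Fzd5, Fzd7 and Fzd8 were listed at 0 in healthy 10x, while Fzd9 and Fzd10 had no count. Fzd4, the receptor of Norrin as well as of WNT ligands, stood at 12.1 CPM in UUO and 38.3 in healthy 10x (-1.66, -2.07 to -1.25). The other healthy nuclei had less of it, 8.36 CPM in DroNc-seq and 6.05 in sNucDrop-seq, so that the direction turned to 0.54 and 1.01 against them. The lower Fzd4 level in UUO therefore rested on the healthy 10x library. Fzd6 was at 23.9 against 14.9 CPM (0.68, 0.19 to 1.19). DroNc-seq nuclei had 24.2 CPM of Fzd6, a ratio of -0.02, and sNucDrop-seq nuclei had 14.3. Its level in principal cells was 56.4 CPM (25 counts) in UUO against 0 counts in healthy 10x, so at least 2.15-fold higher with 3 counts as the healthy floor. The lower end of the exact interval was 0.70 on the log2 scale, under 2-fold, and in nuclei with at least 1000 UMIs the floor gave 0.06. Fzd3, a receptor of the planar polarity branch, was at 40.5 against 13.8 CPM in the ascending limb (1.55, 0.46 to 2.79) and at 23.1 against 18 over all nuclei (0.36, -0.09 to 0.83). Fzd1 had 89 counts in Drop-seq, 50 in DroNc-seq, 41 in sNucDrop-seq and 29 in UUO, Fzd5 had 50, 31, 28 and 22 in the same order, and Fzd8 had 17, 17, 16 and 15. Fzd2 lay mainly in podocytes in the nuclei of healthy kidney where it was listed, with 13 of 21 sNucDrop-seq counts and 9 of 17 DroNc-seq counts under Pod, and 3 of 12 in UUO. Fzd7 was highest in CNT in Drop-seq (56.0 CPM) and in CD-PC in DroNc-seq (52.3 CPM).

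**Figure D1:**
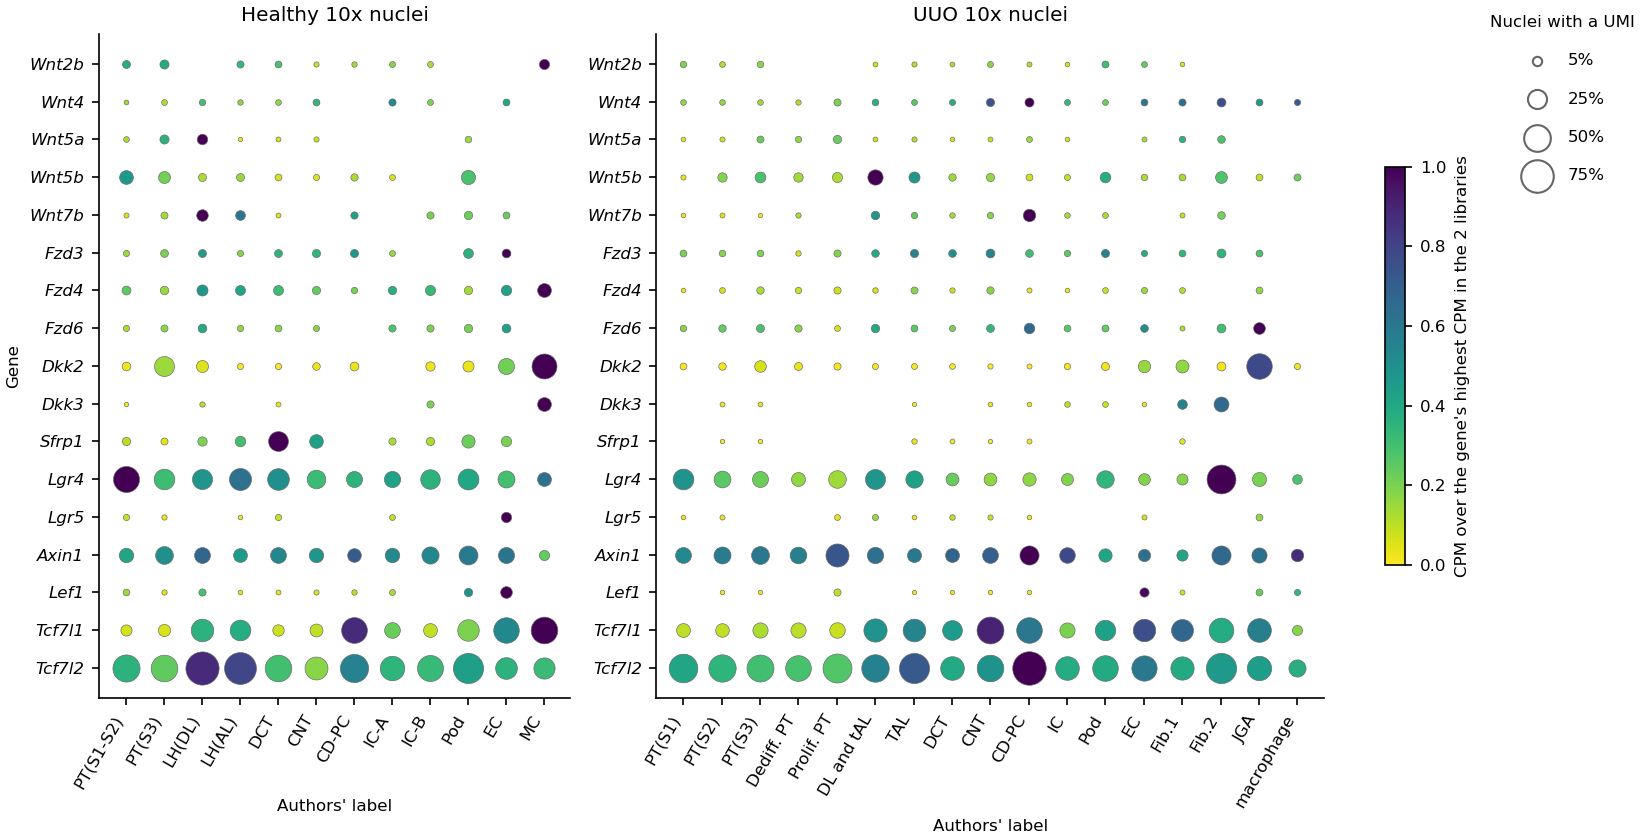
Levels of the 17 WNT genes measured in both 10x libraries, by the authors' label; healthy nuclei on the left, UUO nuclei on the right. Colour is the CPM of a label over the highest CPM of that gene in either library, dot area rises with the share of nuclei with a UMI, and a missing dot is a count of 0; the healthy MC label holds 16 nuclei. Sfrp1 is darkest in healthy DCT and pale in every UUO label, and Wnt5b is darkest in UUO DL and tAL.

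Sfrp1, which binds WNT ligands outside the cell, showed the lowest UUO to healthy ratio of the 17 WNT genes measured in both 10x libraries. It had 20 counts in UUO nuclei, 201 in healthy 10x nuclei, 522 by DroNc-seq, 310 by sNucDrop-seq and 871 in Drop-seq cells, that is 68.2 CPM in healthy 10x and 2.70 in UUO, a log2 ratio of -4.66 (-5.40 to -3.99). The 4 healthy libraries, which include both sex-linked patterns, lay between 67.0 and 127 CPM, all above the UUO library. In healthy kidney Sfrp1 was highest in DCT, CNT and LH(AL). In Drop-seq cells it reached 1375 CPM in DCT (in 114 of 146 cells), 1003 in CNT and 485 in LH(AL), against 19.7 in the proximal tubule. In healthy 10x nuclei it was at 276 CPM in DCT, 119 in CNT and 83.1 in LH(AL). The UUO values of those classes were 5.56 (3 counts), 1.69 (1 count) and 8.34 CPM (7 counts), giving ratios of -5.63 (-7.94 to -4.03), -6.14 (-11.50 to -3.52) and -3.32 (-4.70 to -2.18). The proximal tubule showed 1.10 against 21.1 CPM (-4.26, -6.24 to -2.72). Slc12a1, of the Ascending limb list, was at 1501 CPM in healthy 10x PT(S1-S2), beside 15400 in LH(AL). In UUO it was at 29.1 CPM in PT(S2), beside 1276.5 in TAL. The part of RNA from other cells in the proximal tubule level of Sfrp1 was not tested. Sfrp1 was lower by over 4-fold in each of the 4 classes where it was measured, under every alternative run there, and the all-nuclei ratio ranged from -5.76 to -4.23. Sfrp1 lies on chromosome 8 at 23411502 to 23449632 on the plus strand, and no annotated gene overlaps it.

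Dkk2 and Dkk3 stood out by where they were, more than by how much they changed. Dkk2, a modulator of the co-receptors, was highest in the healthy label MC, at 883 CPM in DroNc-seq, 471 in sNucDrop-seq and 1368 in healthy 10x (21 counts in 7 of 16 nuclei). The UUO annotation has no MC label. There Dkk2 was highest under JGA, at 1064 CPM (790 to 1403), in 21 of 46 nuclei, a label that also held 77 of the 151 UUO counts of Ren1, the renin gene. Its leading marker lists were Connecting tubule, from 1 of 5 genes, and Fibroblast, pericyte and mesangial, from 9 of 12, at 1597 CPM against 409. Fib.1 (226 CPM) and EC (213 CPM) followed. Thinned to 500 UMIs, Dkk2 was found in 31.2% of the 32 JGA nuclei deep enough, 7.43% of EC and 0.652% of PT(S2). A second site was the straight proximal tubule: 207 CPM in healthy 10x PT(S3), 113 of 215 counts, and 85.3 in UUO PT(S3). The ratio in the proximal tubule class was -1.55 (-1.90 to -1.20), at 38.5 against 113 CPM, and in endothelium -0.48 (-1.30 to 0.43). Dkk3 had 49 counts in UUO against 9 in healthy 10x (1.11, 0.07 to 2.33), with 20 of the 49 in Fib.1 and 10 in Fib.2. DroNc-seq and sNucDrop-seq nuclei had more of it, 30.2 and 35.2 CPM against 6.61 in UUO, and the ratios against them were -2.19 and -2.41. Its MC level was 153 CPM in DroNc-seq and 149 in sNucDrop-seq. Dkk3 was also high in IC-A, at 108 CPM in DroNc-seq (15 counts in 9 of 60 nuclei) and 116 in Drop-seq (4 counts). Dkk4, Sfrp2, Sfrp4 and Sfrp5 had fewer than 20 counts in all, and Dkk1 had none.

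Rspo2 and Rspo3, R-spondins that raise the response to WNT ligands, had 2 and 24 counts in UUO and were listed at 0 in healthy 10x. Rspo2 had 23 counts in Drop-seq, 14 in DroNc-seq and 15 in sNucDrop-seq, and Rspo3 had 12 in sNucDrop-seq, while 5 of its 24 UUO counts were in Fib.1. Rspo1 had fewer than 20 counts over all libraries and Rspo4 had none. Lgr4, their main epithelial receptor, was found under nearly every label. It had 1038 counts in healthy 10x and 1266 in UUO, at 352 and 171 CPM (-1.04, -1.16 to -0.92). The largest difference was in the proximal tubule, at 422 against 161 CPM (-1.39, -1.56 to -1.22). Over the settings run, which include the other healthy libraries, this proximal tubule ratio ranged from -1.41 to -0.18. There the segments differed in size: PT(S1-S2) was at 618 CPM in healthy 10x against 179 in UUO PT(S1) and PT(S2) together (-1.79, -1.99 to -1.59), and PT(S3) at 191 against 138 (-0.46, -0.87 to -0.06). The UUO labels Dediff. PT and Prolif. PT held 103 and 87.7 CPM of Lgr4. The descending limb had 296 CPM of Lgr4 in UUO and 297 in healthy 10x (-0.00, -0.57 to 0.57). In UUO the highest label of Lgr4 was Fib.2, at 617 CPM (483 to 777) in 40 of 68 nuclei. The size of the difference depended on the healthy library, since DroNc-seq nuclei had 289 CPM (ratio -0.76) and sNucDrop-seq 173 (-0.02). Lgr5, a stem cell receptor in gut and hair, had 22 to 66 counts per library. In healthy 10x its highest label was EC at 129 CPM, from 7 counts in 3 of 46 nuclei. Lgr6 had fewer than 20 counts.

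Axin1, the scaffold of the destruction complex, was at 134 CPM in healthy 10x and 172 in UUO (0.36, 0.20 to 0.53), and was within 1.5-fold in every class compared. DroNc-seq and sNucDrop-seq nuclei had less of it, 53.7 and 62.8 CPM, and the ratios against them were 1.68 and 1.46. Axin2, a feedback target of beta-catenin, was sparse. It had 43 counts in UUO and 8 in sNucDrop-seq and was listed at 0 in the other healthy libraries, and no UUO label held more than the 6 counts of CD-PC (13.5 CPM). With so few counts its level by label cannot be ordered.

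The TCF/LEF factors bind DNA and carry the output of the canonical branch. Tcf7l1, which mainly represses targets until beta-catenin displaces it, had 639 counts in healthy 10x and 2660 in UUO, at 217 and 359 CPM (0.73, 0.60 to 0.85). In the distal segments the difference was larger. In connecting tubule it was at 943 CPM in UUO against 104 (3.18, 2.54 to 3.91), in 269 of 529 UUO nuclei, and in distal convoluted tubule at 474 against 78.2 (2.60, 1.96 to 3.32). With DroNc-seq and sNucDrop-seq as the healthy library these ratios were 4.20 and 5.30 in connecting tubule and 3.32 and 4.30 in distal convoluted tubule. Principal cells went the other way, from 920 CPM in healthy 10x to 630 in UUO (-0.55, -0.88 to -0.21). So in healthy 10x CD-PC stood above CNT for Tcf7l1, and in UUO CNT stood above CD-PC and had the highest CPM of the labels. Against DroNc-seq and sNucDrop-seq principal cells the ratio was 2.09 and 2.90, the opposite direction. The Principal cell list moved with these labels, at 6599 CPM in healthy CD-PC, 377 in UUO CD-PC and 386 in UUO CNT, and its part in the order of the labels was not tested. Thinned to 500 UMIs, Tcf7l1 was found in 33.7% of UUO CNT nuclei and 6.52% of healthy ones, and in 17.8% against 2.21% of DCT. In the other UUO nuclei that list was at 76.4 CPM, and UUO CNT held 1473 CPM of its own Connecting tubule list. Podocytes had 448 against 205 CPM (1.13, 0.37 to 1.92), and the proximal tubule 106 against 66.5 (0.68, 0.33 to 1.05). Tcf7l1 has a 163 kb gene on chromosome 6 at 72626378 to 72789254 on the minus strand that encloses several unnamed gene models on both strands.

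Tcf7l2, a factor that activates targets with beta-catenin, had nearly the same level over all nuclei, 837 CPM in UUO and 818 in healthy 10x (0.03, -0.04 to 0.10). The labels that led it differed: LH(DL) at 1600 and LH(AL) at 1432 CPM in healthy 10x, and CD-PC at 1812 CPM in UUO. By class it was higher in UUO connecting tubule, 890 against 322 CPM (1.47, 1.09 to 1.87), principal cells, 1812 against 1017 (0.83, 0.55 to 1.13), and endothelium, 1087 against 647 (0.75, 0.24 to 1.30), and lower in the descending limb, 1022 against 1600 (-0.65, -0.91 to -0.38). Lef1 had its highest class level in endothelium in both 10x libraries. Its EC level was 90.6 CPM in UUO (23 of 39 counts) and 92.4 in healthy 10x (5 of 31 counts), against 2.24 and 8.99 in the other nuclei. Over all nuclei it was at 5.26 against 10.5 CPM (-1.0, -1.72 to -0.27), just under the 2-fold line, and the direction turned to 0.30 against DroNc-seq and 0.91 against sNucDrop-seq. Tcf7, known mainly from lymphocytes, had fewer than 20 counts in all.

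**Figure D2:**
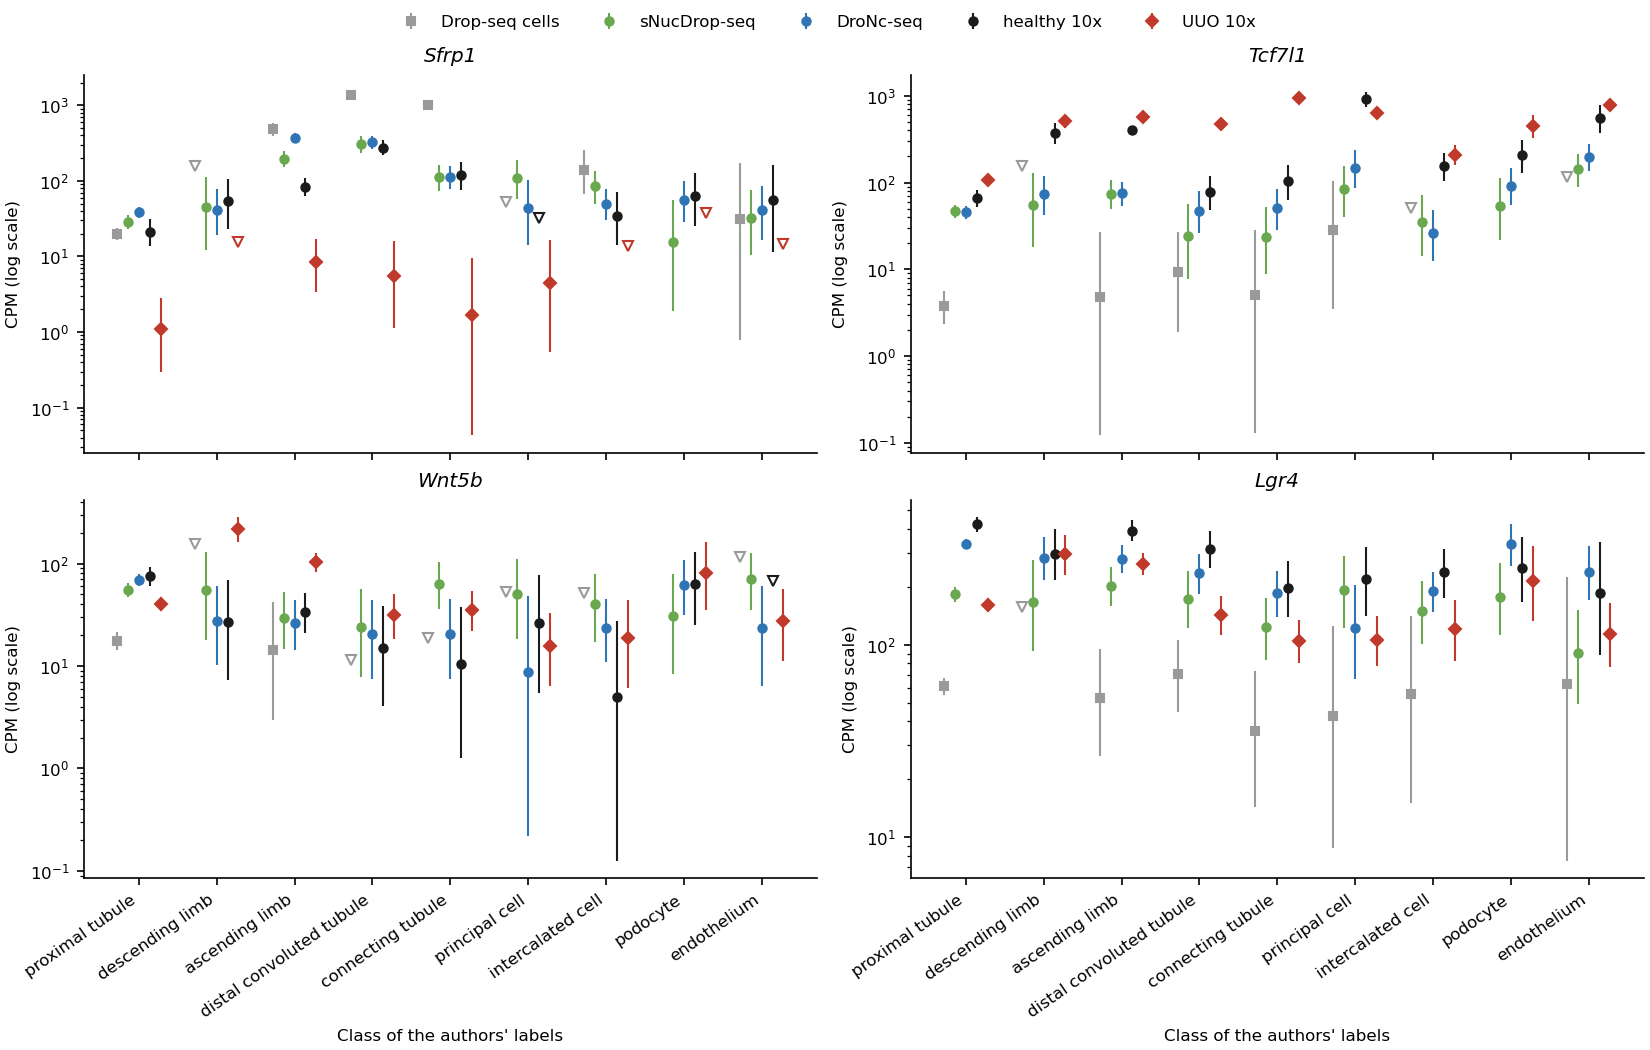
CPM on a log scale of Sfrp1, Tcf7l1, Wnt5b and Lgr4 in 9 classes of the 5 libraries, 1 point per library, with exact 95% Poisson intervals. An open triangle is the upper limit of a count of 0 and is left out where that limit is above 300 CPM. Sfrp1 in UUO (red) is below all healthy libraries in proximal tubule, ascending limb, distal convoluted and connecting tubule, and Tcf7l1 in UUO is above all of them in these last 2 classes.

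Over all nuclei, 17 of the WNT genes were measured in both 10x libraries, which means listed in both with at least 20 counts in sum. At least 2-fold higher in UUO were 2 of them, Dkk3 and Wnt4, where 10.2% of the 12831 genes measured were higher. At least 2-fold lower were 4, Sfrp1, Fzd4, Wnt2b and Lgr4, where 20.5% of all genes were lower. These shares are near the background on both sides. Their median log2 ratio was -0.51 and that of all genes -0.16. Wnt4 at 1.00 and Dkk3 at 1.11 lay close to the 2-fold line. Neither was past it in nuclei with at least 500 UMIs, nor without the fibroblast, MC and macrophage labels.

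**Figure D3:**
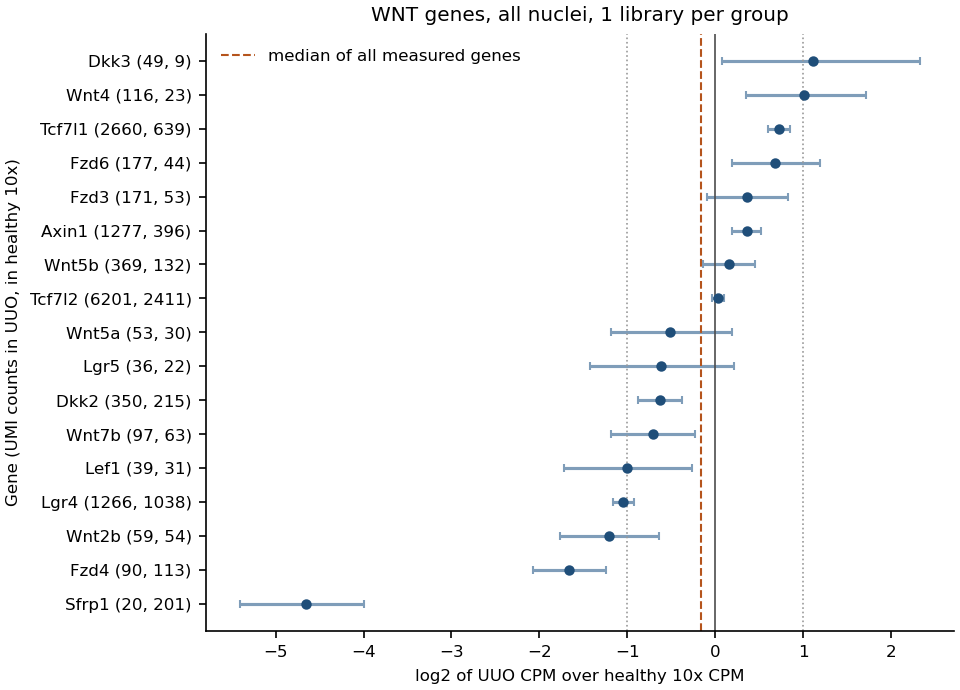
log2 ratio of UUO CPM over healthy 10x CPM for the 17 WNT genes measured over all nuclei, with exact 95% intervals of counting error; the counts behind each point stand beside the gene. Dotted lines mark 2-fold, and the dashed line the median of all 12831 measured genes (-0.16). Sfrp1 at -4.66 lies apart from the other 16 genes, which lie between -1.66 and 1.11.

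Within classes, 71 pairs of gene and class were measured. Of these, 12 were at least 2-fold higher in UUO (background 17.8% of all such pairs) and 17 at least 2-fold lower (15.7%). In the proximal tubule 0 of 15 were higher (background 14.6%) and 8 lower (20.7%): Sfrp1, Wnt2b, Dkk2, Fzd4, Lgr4 and Wnt5a with intervals clear of 0, and Lgr5 and Wnt7b with intervals that span it. Fzd4 turned to 0.91 with DroNc-seq and 1.62 with sNucDrop-seq as the healthy library, and Wnt5a to 0.043 with DroNc-seq. Their median was -1.0 and that of all 11395 genes -0.10. In the ascending limb 2 of 12 were higher (16%), Wnt5b and Fzd3, and 4 lower (17.2%), Sfrp1, Wnt2b, Wnt7b and Fzd4. By segment, PT(S1) and PT(S2) together against healthy PT(S1-S2) had 0 of 12 higher (14.5%) and 5 lower (20.4%), and PT(S3) 1 of 10 higher (20.2%), Tcf7l1 at 133 against 58.7 CPM, and 2 lower (18.5%). Wnt5b was lower in the first, 35.5 against 99.6 CPM (-1.49, -1.97 to -1.0), and not in PT(S3), 62.0 against 45.8 (0.44, -0.29 to 1.20). Dkk2 was lower in PT(S3), 85.3 against 207 CPM (-1.28, -1.74 to -0.83), more than in PT(S1) and PT(S2), 25.3 against 32.7 (-0.37, -1.10 to 0.42), and these differences between segments were not tested. Dediff. PT, set against the healthy proximal tubule, had 0 of 9 higher (13.8%) and 4 lower (26.9%), and Prolif. PT 0 of 10 (17%) and 4 (26.4%). The descending limb class had 1 of 6 higher (12.5%), Wnt5b, and 1 lower (13.5%), Wnt7b, whose interval spans 0.

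The distal convoluted tubule had 2 of 7 higher (20.9%), Tcf7l1 and, with an interval that spans 0, Wnt5b, and 2 lower (14.4%), Sfrp1 and Lgr4. In the connecting tubule 4 of 10 were higher (24.9%), Tcf7l1 and Tcf7l2 with clear intervals, Wnt4 and Wnt5b with intervals that span 0, and 1 was lower (13.2%), Sfrp1. Principal cells had 2 of 7 higher (21.4%), Fzd6 by the floor given above and Wnt7b with an interval that spans 0, and 1 lower (13.3%), Lgr4. Podocytes had 1 of 4 higher (12.7%), Tcf7l1, and 0 lower (15.9%). Intercalated cells (4 measured; 16% of all genes higher and 12.4% lower) and endothelium (6 measured; 21.6% and 11.7%) had 0 in either direction. Lgr4 was below the healthy value in all 9 classes, by between -0.00 and -1.39, with a clear interval in 6. Against sNucDrop-seq its ratio was above 0 in 4 of them, the ascending limb (0.39), descending limb (0.83), podocytes (0.27) and endothelium (0.34).

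**Figure D4:**
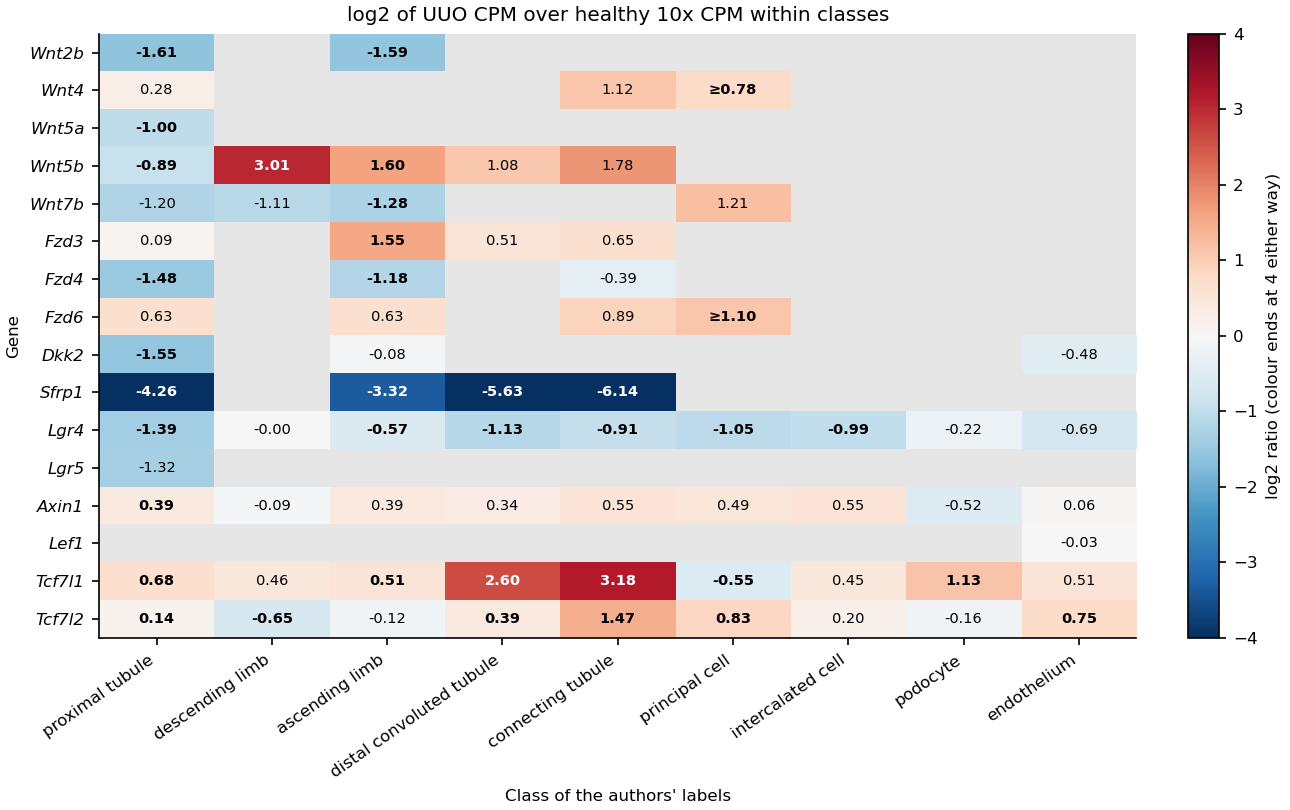
log2 ratio of UUO over healthy 10x CPM for each WNT gene (rows) in each class (columns); grey is under 20 counts, bold has an interval clear of 0, and a sign before a value marks a bound against a count of 0. Sfrp1 is at -3.32 or lower in 4 classes, and Tcf7l1 reaches 2.60 and 3.18 in the distal convoluted and connecting tubule.

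By label within each library, a gene was called where its interval lay over 2-fold above the rest of that library. Calls were 8 of 208 pairs of gene and label in Drop-seq (background 1.34%), 7 of 234 in sNucDrop-seq (1.77%), 10 of 247 in DroNc-seq (2.32%), 14 of 208 in healthy 10x (1.9%) and 12 of 374 in UUO (1.55%). Dkk2 was called in MC of all 3 healthy nucleus libraries and in EC of sNucDrop-seq and both 10x libraries. Sfrp1 was called in DCT of all 4 healthy libraries and in no UUO label. In DroNc-seq Tcf7l1 was called in MC (222 CPM) and EC (198 CPM), and in healthy 10x in MC (1043 CPM, 16 counts), CD-PC and LH(AL).

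Across the 16 UUO labels with at least 50 nuclei, the genes whose log2(CPM + 10) followed a WNT gene most closely were taken among 8045 genes, as a description over labels that share 1 library. For Tcf7l1 they were Rarg (Pearson r 0.96), Hivep3 (0.88) and Nrep (0.87), for Tcf7l2 Fam171a2 (0.83), Fut2 (0.82) and Gpc5 (0.81), for Lgr4 9530077C05Rik (0.82), Tshz1 (0.78) and Kdm5a (0.75), and for Axin1 Ptp4a2 (0.81), Coq2 (0.80) and Asah1 (0.80).

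Levels also differed between the healthy nucleus libraries. Healthy 10x nuclei had 818 CPM of Tcf7l2 against 149 in DroNc-seq and 129 in sNucDrop-seq, and 217 CPM of Tcf7l1 against 63.8 and 54.6. For Sfrp1 the same 3 values were 68.2, 89.0 and 67.0 CPM, and for Wnt5b 44.8, 54.2 and 52.5. Of 16 WNT genes with enough counts, 6 stood over 2-fold above in healthy 10x compared with in DroNc-seq (background 14.6%) and 1 below (13.8%), and against sNucDrop-seq 7 were higher (14.9%) and 1 lower (17.3%). The UUO comparison above was kept within the 10x platform. With DroNc-seq as the healthy library, 4 of 23 were higher in UUO (17.2%) and 6 lower (29.1%), and with sNucDrop-seq 8 of 25 were higher (19%) and 7 lower (31.1%).

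Whole cells and nuclei were compared as Drop-seq over sNucDrop-seq. Of 21 WNT genes, 0 passed 2-fold in favour of cells (16.7% of all genes) and 10 in favour of nuclei (50.7%). Sfrp1 was higher in cells over all barcodes, 127 against 67.0 CPM (0.92, 0.73 to 1.11). Within the proximal tubule its ratio ranged from -0.96 to 0.53 over the settings run. In DCT it was at 1375 CPM in cells and 304 in sNucDrop-seq nuclei. Fzd3 was also higher in cells over all barcodes, 15.6 against 9.50 (0.71, 0.19 to 1.25). DroNc-seq and healthy 10x nuclei had 18.2 and 18 CPM of Fzd3, so that against them the ratio turned to -0.23 and -0.21, with intervals that span 0. Tcf7l1 was at 4.22 against 54.6 CPM in cells (-3.69, -4.30 to -3.14), Wnt2b at 1.02 against 15.1 (-3.89, -5.26 to -2.77), Dkk2 at 12.4 against 80.3 (-2.70, -3.06 to -2.36) and Lgr4 at 59.5 against 173 (-1.54, -1.72 to -1.37). The median over the WNT genes was -0.91 and over all genes -1.03. Within the proximal tubule 1 of 20 was higher (17.9%) and 10 lower (48.7%). Under TMM scaling, which centres the genes and moved the median of all genes by 1.13, 7 were higher and 5 lower over all barcodes, where 32.5% and 25.7% of all genes were.

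Other genes of the pathway were taken from lists by role, with 66 of 87 measured. At least 2-fold higher in UUO were 8 and lower 12, with a median of 0.06 beside the same background shares of 10.2% and 20.5%. Among co-receptors, 1 of 6 was lower: Ror2, a receptor for Wnt5a, at 17.3 against 109 CPM (-2.66, -2.96 to -2.36). Its proximal tubule level was 9.35 against 208 CPM. Lrp5 was at 113 against 65.5 CPM (0.79) and Lrp6 at 187 against 158 (0.25). Of the 4 genes measured in the antagonist list 2 were lower. Sostdc1 was at 2.83 against 29.5 CPM (-3.38, -4.14 to -2.68). Notum, an enzyme that removes the lipid of WNT ligands, had 2 counts against 21. The other 2, Frzb and Tmem67, were at -0.33 and -0.06, and whether Tmem67 acts as an antagonist was not tested.

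Planar polarity genes held the highest value of the lists, Prickle2 at 400 against 25.1 CPM (4.00, 3.66 to 4.35), with Daam2 (-1.78) and Celsr2 (-1.28) lower among 9 measured. Prickle2 was at 576 against 21.9 CPM in the proximal tubule and 272 against 7.45 in the distal convoluted tubule. In the cytoplasmic core 2 of 14 were higher, Csnk1a1 (1.10) and Gsk3b (1.06), kinases of the destruction complex, and 3 lower, among them Dvl3 (-1.35) and Dvl1 (-1.11), which relay the Frizzled signal. Targets were 3 of 10 higher, Myc at 43.9 against 5.09 CPM (3.11), Fn1 (3.19) and Plaur (2.35), and 2 lower, with Bmp4 at -1.59. Myc, Fn1 and Plaur also respond to other signals. The receptor turnover list of 3 held Znrf3 (0.76), Rnf43 (-0.38) and Usp6nl, the only one past 2-fold (1.16). Whether Usp6nl acts on WNT receptors was not tested. Of 10 nuclear partners Ctnnbip1 was higher (1.38). Lower were Nfatc2 (-1.28) of 8 in the calcium branch and Porcn (-1.40) of 2 in secretion.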

How the data were processed

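UMI counts per gene and barcode came from 2 count tables deposited by the authors, 1 for the healthy libraries, listing 19713 genes, and 1 for UUO, listing 21516; the tables share 18249. The authors made these raw counts with zUMIs, per the deposited readme. The submitters' processing notes name STAR 2.5.3a and mm10. For intron counting and strand, the choice is not given in the sources used. The commonest number of barcodes in which a listed gene occurred was 1 for UUO and Drop-seq, 11 for healthy 10x, 10 for DroNc-seq and 3 for sNucDrop-seq. A gene at 0 over a whole library is thus only said to be listed at 0, without a fold. UMI totals per library were 6872118 (Drop-seq), 4630236 (sNucDrop-seq), 5864130 (DroNc-seq), 2947137 (healthy 10x) and 7411036 (UUO).

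Cell labels were those of the deposited annotation. All deposited barcodes were kept, and doublets were not called. Counts were summed within a label or class of a library, and CPM was taken relative to every UMI in that sum. Poisson intervals of sums and intervals of log2 ratios, conditional on the total, are exact at 95%. A gene counted as measured if listed in both libraries with 20 or more counts over the 2 sums, and as called where the ratio was at least 2-fold. A count of 0 in a class was set at a floor of 3 counts for the sum. The scripts were checked on simulated counts. The members, lists and tests were chosen with earlier results of these data known. Every gene with at least 20 counts over the 5 libraries is described, and genes with fewer are named only. In each class the genes at least 2-fold apart with an interval clear of 0 are named, and from each list of other pathway genes up to 4 with the farthest interval bound. Named outside this rule, after their values were seen, were the genes whose class interval spans 0, the promoters of Wnt5b and Dkk2, and Frzb and Tmem67. The likeness across labels was computed for the 4 genes with the most counts over the 5 libraries. Alternatives covered the scaling, barcode and count minimums, the healthy reference, cell composition and thinning to 500 UMIs. Python 3.11.15 with numpy 2.4.6, scipy 1.17.1 and pandas 2.3.3, and edgeR 4.0.16 in R 4.3.3 for TMM factors, were used.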

Additional observations from a re-analysis of the deposited data

Results flagged for a closer look

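For 3 genes the UUO to healthy 10x ratio went opposite ways in different classes, each with a counting interval clear of 0. With 1 library per group the difference between classes was not tested. The log2 ratio of Wnt5b was -0.89 in the proximal tubule, 1.60 in the ascending limb and 3.01 in the descending limb. That of Tcf7l1 was -0.55 in principal cells, against 0.68 in the proximal tubule, 0.51 in the ascending limb, 1.13 in podocytes, 2.60 in the distal convoluted tubule and 3.18 in the connecting tubule. Tcf7l2 was at -0.65 in the descending limb, against 0.14 in the proximal tubule, 0.39 in the distal convoluted tubule, 0.75 in endothelium, 0.83 in principal cells and 1.47 in the connecting tubule. With DroNc-seq or sNucDrop-seq as the healthy library, Tcf7l1 in principal cells turned to 2.09 and 2.90 and Tcf7l2 in the descending limb to 2.5 and 2.82, while Wnt5b kept its signs, at -0.77 and -0.46 in the proximal tubule and 1.96 and 1.81 in the ascending limb.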

How the results depend on the processing

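No paired analysis was possible because each group has 1 library, and for the same reason no replicate could be left out. Over all alternatives of 144 results, 1270 values stayed within the main value's counting interval or, for counts, near the main count. A further 213 moved outside these limits. Among main values past 2-fold with an interval clear of 0, 11 reversed in sign. A change of sign in any other value was not counted as reversed, and the cause was not tested. The 11 reversed log2 ratios came from another reference library. With DroNc-seq as the healthy library they were Dkk3 -2.19 and Fzd4 0.54 over all nuclei, and Fzd4 0.91 and Wnt5a 0.043 in the proximal tubule. With sNucDrop-seq they were Dkk3 -2.41 and Fzd4 1.01 over all nuclei, Fzd4 1.62 in the proximal tubule and Fzd4 0.58 in the ascending limb. For cells against nuclei they were Dkk3 1.25 over all barcodes and 2.90 in the proximal tubule with 10x nuclei, and Fzd3 -0.31 in the proximal tubule with DroNc-seq nuclei.

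Of the WNT genes higher over all UUO nuclei (2), 1 was left with a mean of CPM over barcodes, without high-UMI barcodes, with at least 100 counts or without the shared barcode sequences. Under these settings between 10.2% and 12.7% of all genes were higher. There were 0 with at least 500 or 1000 UMIs per barcode, without fibroblast, MC and macrophage labels or with class weights. There between 9.61% and 10.8% of all genes were higher. With DroNc-seq 4 of 23 were higher (17.2% of all genes), and with sNucDrop-seq 8 of 25 (19%). Those lower (4, background 20.5%) became 7 of 25 with sNucDrop-seq (31.1%). Within classes the 12 higher of 71 pairs (17.8% of all gene pairs) became 20 of 160 with at least 1 count (13.5%), 4 of 29 with at least 100 (19.2%), 30 of 72 with DroNc-seq (24.4%) and 36 of 67 with sNucDrop-seq (25.3%). The 17 lower (15.7%) became 56 (27%), 3 (12.4%), 14 (23.7%) and 9 (25.3%). For cells against nuclei, the 0 higher (16.7% of all genes) became 7 under TMM scaling (32.5%). They became 2 without mitochondrial and ribosomal protein genes (22.1%) and 1 with DroNc-seq (17.5%) or 10x nuclei (19.4%). The 10 lower (50.7%) became 5 under TMM (25.7%). In the proximal tubule the 1 higher (17.9%) became 5 under TMM (33.4%) and 0 with DroNc-seq (19.7%), and the 10 lower (48.7%) became 4 under TMM (25.2%). Other pathway genes higher in UUO (8) became 20 with DroNc-seq, where the share of all genes went from 10.2% to 17.2%. Thinned to 500 UMIs, the pairs of gene and label numbered 5 of 8 for Drop-seq, 5 against 10 for DroNc-seq and 8 against 14 for healthy 10x. TMM moved the median of all genes by 0.17 over all nuclei. The removal of shared barcode sequences and the single proximal tubule labels were chosen after seeing the data. In healthy 10x every ligand but Wnt5b had under 70 counts, which limits their precision.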
